A study of Mus musculus with 84 samples.

Results

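The genes described here are 10 enzymes of serine, glycine, threonine and folate metabolism, taken by symbol (Phgdh, Psat1, Psph, Shmt1, Shmt2, Mthfd1, Mthfd2, Mthfd1l, Gldc and Tdh) from a table of 18909 mouse genes. All 10 symbols were found. The rule names genes and uses no measured value, but it was set with earlier results of these data known. Their RNA was followed with STRT RNA-seq, a tagged reverse transcription method that reads the 5′ ends of transcripts, from fibroblasts through reprogramming toward embryonic stem cells (ESCs). There were 10 groups with 3 biological replicates each. Mouse embryonic fibroblasts (MEFs) were wild-type cells of the 129 strain, grown with FGF2 and heparin but without LIF and doxycycline, and they were not sorted. ESCs were the TNG MKOS line, which carries a Nanog-GFP reporter, so a single line stands for the pluripotent state. The paper describes medium with LIF for this line, and the ESC labels name neither doxycycline nor a vector. The other 8 groups were MEFs derived from that line, with c-Myc, Klf4, Oct4 and Sox2 under doxycycline control and an mOrange reporter. They were cultured with LIF, vitamin C and 300 ng/ml doxycycline, infected with a retrovirus for blue fluorescent protein (Cont) or for constitutively active Smad3 (+Sm3CA), and sorted for mOrange on days 3, 6, 8 and 10. These cells came from chimeric embryos and were mixed with wild-type MEFs for culture, so the sort decides which cells were measured. MEFs therefore differed from every reprogramming group in line, medium, infection and sort as well as in the factors. Differences of ESCs from the reprogramming groups likewise include doxycycline with the factors it induces, and the vector, as well as the cell state.

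Serine is made from a glycolytic intermediate in a short chain of steps, for which Phgdh (phosphoglycerate dehydrogenase) makes the entry, Psat1 (a phosphoserine aminotransferase) adds the amino group and Psph (a phosphatase) releases serine. Shmt1 in the cytosol and Shmt2 in mitochondria move a carbon from serine to folate and leave glycine, while Gldc, the decarboxylase of the glycine cleavage system, passes a carbon from glycine to folate in mitochondria. Mthfd2 and Mthfd1l carry the folate-bound carbon on to formate inside mitochondria, and Mthfd1 takes formate back up in the cytosol, where the carbon enters purines, thymidylate and methionine. Tdh, threonine dehydrogenase, starts the breakdown of threonine to glycine and acetyl-CoA, and mouse ESCs are known for their dependence on it.

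In the GENCODE annotation of GRCm38 (mm10, the build named in the submitters' processing notes) all 10 are protein-coding genes. Phgdh (ENSMUSG00000053398) lies at chr3:98313170-98339990, Psat1 (ENSMUSG00000024640) at chr19:15904678-15947337 and Psph (ENSMUSG00000029446) at chr5:129765558-129787449, all on the minus strand. Shmt1 (ENSMUSG00000020534) lies at chr11:60788104-60811718 and Shmt2 (ENSMUSG00000025403) at chr10:127517123-127522444, both on the minus strand. Mthfd1 (ENSMUSG00000021048) at chr12:76255298-76319803 and Mthfd1l (ENSMUSG00000040675) at chr10:3973118-4167081 are on the plus strand, and Mthfd2 (ENSMUSG00000005667) at chr6:83305691-83325908 is on the minus strand. Gldc (ENSMUSG00000024827) at chr19:30098447-30175429 and Tdh (ENSMUSG00000021953) at chr14:63492347-63509092 are also on the minus strand. Psph overlaps Cct6a, Tdh overlaps the antisense gene Gm17232 and Mthfd1 overlaps the antisense genes Gm34868 and Gm47525. Whether reads were counted by strand is not given in the sources used here, so reads of these genes and of their partners cannot be told apart, and reads of Phgdh could be shared with its pseudogene Phgdh-ps1.

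Because STRT reads begin at transcript starts, the DNA just before the RefSeq starts of 5 members is shown. They are Gldc, Shmt1, Mthfd1 and Mthfd1l, which were higher than in MEFs both on day 3 and in ESCs, and Mthfd2, which was higher on day 3 and lower in ESCs. The sequences are from RefSeq on GRCm38.p6, run 5′ to 3′ on the gene's strand and end at or next to the RefSeq start. These starts differ from the ends of the GENCODE genes given above. Those of Mthfd2 (83317604) and Shmt1 (60811265) lie inside the GENCODE gene. Those of Gldc (30175441), Mthfd1 (76255232) and Mthfd1l (3973075) lie just outside it. Where the reads of these genes began was not examined. Capitals mark CCAAT or its reverse complement ATTGG, the letters bound by the general factor NF-Y. The windows are chr19:30175442-30175541 (minus strand) for Gldc, chr11:60811266-60811365 (minus strand) for Shmt1, chr12:76255132-76255231 (plus strand) for Mthfd1, chr10:3972975-3973074 (plus strand) for Mthfd1l and chr6:83317607-83317704 (minus strand) for Mthfd2.
Gldc: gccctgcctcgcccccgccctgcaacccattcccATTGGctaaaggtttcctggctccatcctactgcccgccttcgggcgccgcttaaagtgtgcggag
Shmt1: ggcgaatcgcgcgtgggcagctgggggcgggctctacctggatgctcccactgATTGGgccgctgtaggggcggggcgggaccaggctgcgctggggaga
Mthfd1: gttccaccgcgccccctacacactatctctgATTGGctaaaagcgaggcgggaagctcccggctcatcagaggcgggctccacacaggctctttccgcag
Mthfd1l: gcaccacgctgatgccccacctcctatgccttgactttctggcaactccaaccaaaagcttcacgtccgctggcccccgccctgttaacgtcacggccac
Mthfd2: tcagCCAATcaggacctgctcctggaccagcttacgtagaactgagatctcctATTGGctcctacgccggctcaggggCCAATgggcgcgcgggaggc

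The first base of these letters lay 66 bases before the start in Gldc, 47 in Shmt1 and 69 in Mthfd1, each as ATTGG. Mthfd2 held CCAAT at 96 and 22 bases and ATTGG at 47 bases before its start. In the full RefSeq windows, from 250 bases before to 50 after a start, 7 of the 9 members with an entry held CCAAT on either strand, and Mthfd1l and Shmt2 did not. Of 32851 promoter windows of the same length, 37.4% held it. None of the member windows held CACGTG (the letters bound by Myc, in 7.15% of all windows), TGATGCAA (the element bound by Atf4, 0.895%) or its looser form TGATGNAA (3.97%). The same was true of the palindromic SMAD letters GTCTAGAC (0.213%) and the octamer core TTTGCAT (4.63%), each searched on both strands. These are matches of letters only, and no binding was measured here.

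The 84 wells were summed to 30 libraries of 1008596 to 2296059 reads, with 3 wells a library except on day 10, where there were 2. Values below are normalised read counts, that is, reads divided by the DESeq2 size factor of the library, and they count reads rather than molecules. Differences were tested with edgeR on raw counts across all genes, and a gene is called changed where its adjusted p is below 0.05. In the +Sm3CA libraries Smad3, which includes reads of the vector, ranged from 89.0 to 184 normalised counts on day 3 and from 32.8 to 47.7 on day 10, against 5.19 to 18.7 and 14.8 to 25.4 in Cont. The summed level of 8 fibroblast markers was 3898 to 5389 in MEFs, 763 to 1110 in Cont on day 3, 1179 to 2413 in Cont on day 10 and 2.57 to 5.42 in ESCs, where Col1a2, Col3a1 and Lum were at 0. Summed over 8 pluripotency markers, the level was 8.89 to 13.0 in MEFs, 23.2 to 37.6 in Cont on day 3 with Nanog, Esrrb and Dppa3 at 0, and 378 to 931 in Cont on day 10. It was 995 to 2276 in +Sm3CA on day 10 and 28770 to 54110 in ESCs. Libraries of MEFs, ESCs and day 3 were in plate rows A to C, days 6 and 8 in rows D to F and day 10 in rows G and H, so that for steps between these blocks the plate position and the day cannot be told apart.

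All 10 members passed the filter on low counts. From MEFs to Cont on day 3, 8 of the 10 rose, where 22.6% of all 10979 genes tested were called higher, and the median log2 fold change of the members was 1.11 against 0.00 for all genes. The same 8 rose in +Sm3CA on day 3 (22.4% of all genes were called higher), with a median of 1.05, and this comparison uses the same MEF libraries. Between MEFs and ESCs, 5 members were higher in ESCs (29.1% of all genes) and 2 were lower (30.5%), and the median was 1.11. These medians would be the same with Tdh and Gldc, which were near 0 in MEFs, set at their lower bounds. Between day 3 and day 10 of Cont, 5 of 10 members fell (Shmt1, Tdh, Psat1, Phgdh and Mthfd2) and none rose. Of all genes, 11.6% fell and 13.6% rose. The median was -0.69 against 0.09 for all genes. Of the 5, Phgdh had no called rise from MEFs. In each series the rise from MEFs and the change after day 3 share the day 3 libraries. An error in those libraries would move both, in opposite directions. In +Sm3CA, 5 fell and 1 rose, where 16.2% of all genes fell and 17.6% rose, with a median of -0.53 against 0.05. In these bulk samples, fewer cells that express a gene and less RNA of it per cell cannot be told apart.

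**Figure D1:**
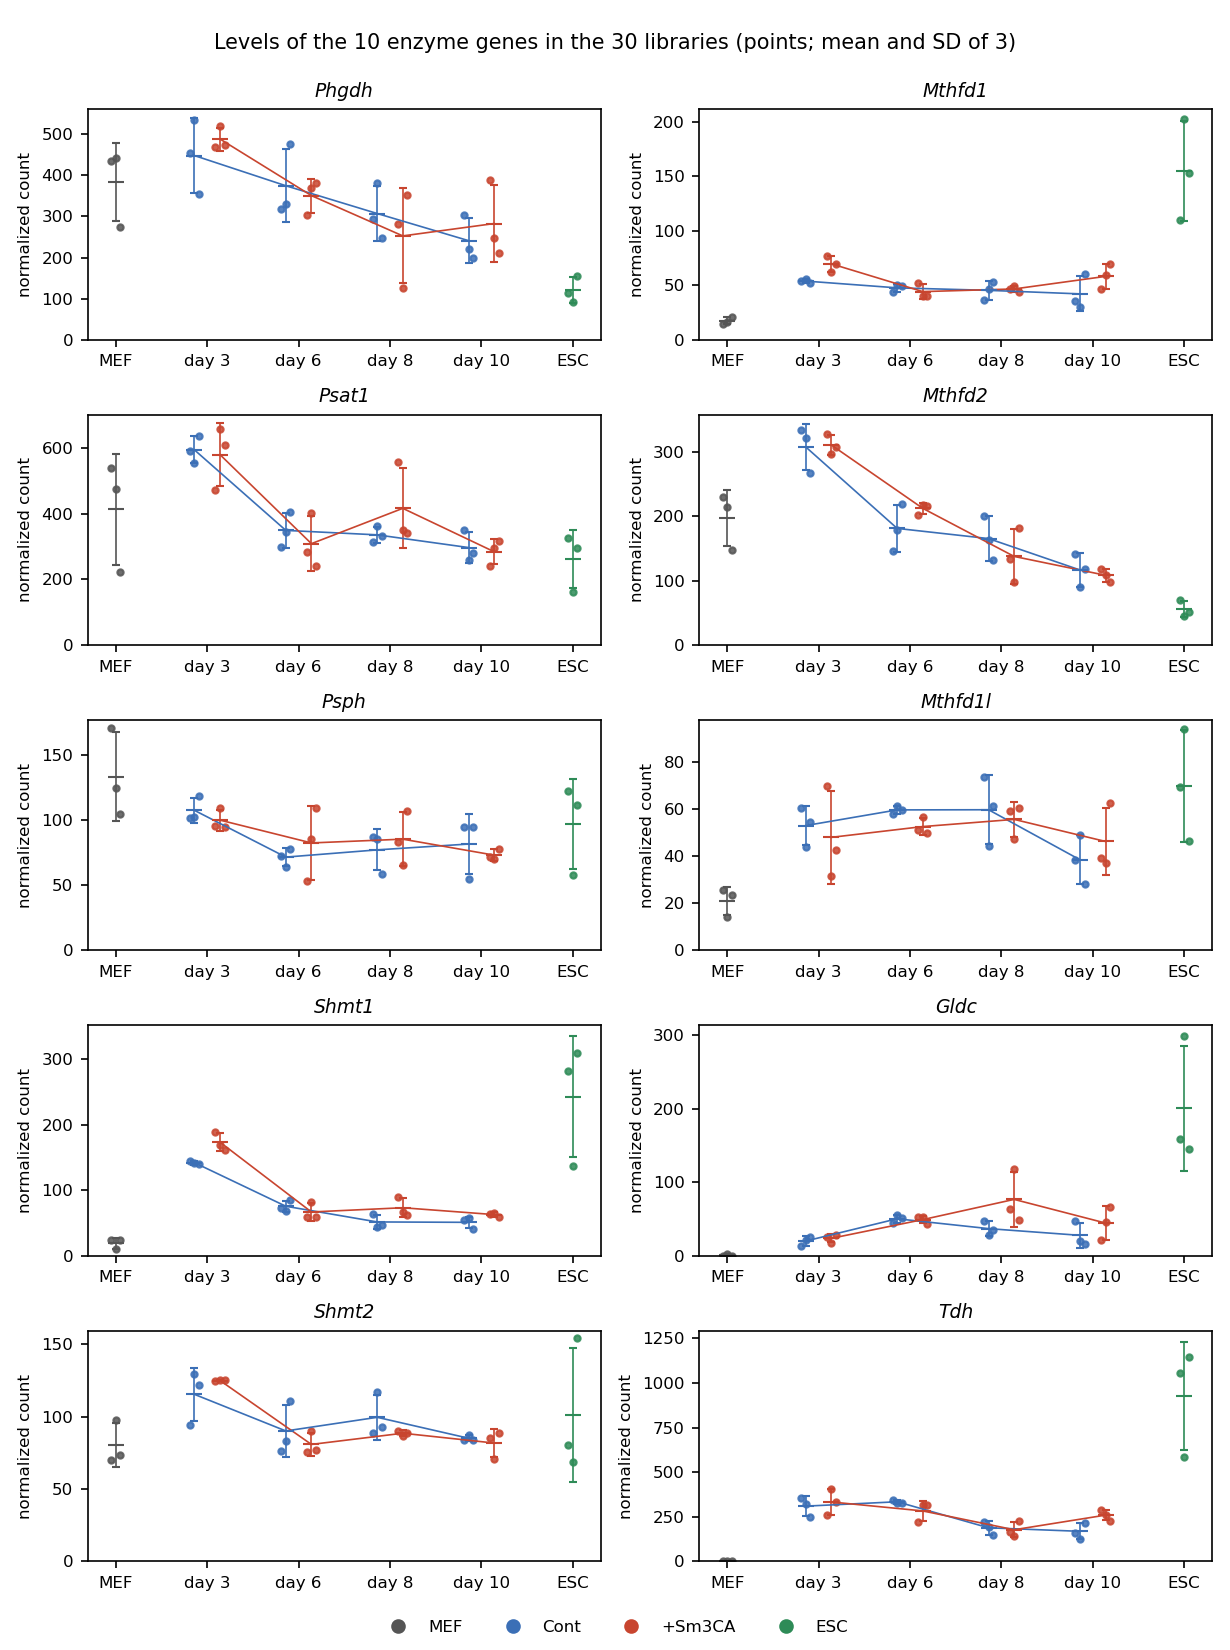
Normalised read count of each of the 10 enzymes (vertical axes, one panel a gene) in MEFs, in Cont and +Sm3CA on days 3, 6, 8 and 10, and in ESCs, with a point for each library, bars for the mean and SD of 3 and lines joining the means of a series. Tdh lies at 0 in MEFs, between 127 and 406 in the reprogramming libraries and between 583 and 1146 in ESCs, whereas Mthfd2 peaks on day 3 and is lowest in ESCs.

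Tdh, which opens the breakdown of threonine, had no read in the 3 MEF libraries. On day 3 of Cont its normalised count was 356, 323 and 248, and on day 3 of +Sm3CA it was 259, 406 and 332. In ESCs it was 1057, 583 and 1146. MEFs thus did not overlap with any other group. Since MEFs were at 0, the rise is given as a bound against 3 reads per library, which is 3.06 normalised counts: Tdh was at least 101-fold higher in Cont on day 3 (953 reads against 0), at least 109-fold higher in +Sm3CA on day 3 (1093 reads) and at least 303-fold higher in ESCs (2371 reads). The floor covers counting error only. All 3 rises passed the test.

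During reprogramming Tdh did not keep rising. Over days 3, 6, 8 and 10 the means in Cont were 309 ± 55.3, 333 ± 11.02, 187 ± 37.9 and 168 ± 45.6 (SD, n = 3), or 33.3%, 35.9%, 20.2% and 18.0% of the ESC mean of 929 ± 302. On the same days the summed counts of 8 pluripotency markers stood at 0.0783%, 0.103%, 0.129% and 1.67% of their ESC mean. In such a sum the markers with the most reads weigh most, and shares of single markers are not given. The Cont libraries of day 10 (159, 127 and 217) were all below those of day 3, and the log2 fold change was -0.89 (SE 0.21, adjusted p = 0.00144). Among single steps, the fall from day 6 to day 8 was called at -0.86 (SE 0.20, adjusted p = 0.0173), which was no longer called without Cont day 6 replicate 1 (adjusted p = 0.0913) or Cont day 8 replicate 3 (0.175).

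In +Sm3CA the means of Tdh over the same days were 332 ± 73.8, 282 ± 54.7, 176 ± 42.8 and 258 ± 29.8. The fall from day 6 to day 8 was -0.69 (SE 0.20, adjusted p = 0.0319), a call lost without +Sm3CA day 6 replicate 2 (0.106) or 3 (0.148) and without +Sm3CA day 8 replicate 1 (0.109) or 2 (0.18). Between days 3 and 10 the change of -0.35 did not pass (adjusted p = 0.183). At day 10 ESCs were still higher in Tdh, by 2.48 (SE 0.25, adjusted p = 6.64e-11) over Cont and by 1.83 (SE 0.24, adjusted p = 6.59e-08) over +Sm3CA, and the 2 comparisons share the ESC libraries. In the order of the 10 group means of Tdh, only 3 of the 9 neighbouring pairs did not overlap, which were ESCs over Cont day 6, +Sm3CA day 10 over Cont day 8, and Cont day 10 over MEFs.

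Gldc was the other enzyme that was close to absent in MEFs. The MEF libraries held 0, 2.17 and 0 normalised counts, which is 2 reads in all. Cont had 13.4, 20.8 and 26.0 on day 3 and 44.3, 55.5 and 50.9 on day 6. The ESC libraries had 158, 298 and 145, above every reprogramming library. The ratio of Gldc to MEFs was 30.04 in Cont on day 3 (95% interval from the counts 7.98 to 254), 35.2 in +Sm3CA on day 3 (9.44 to 296) and 277 in ESCs (76.2 to 2293). These intervals cover the sampling of pooled reads only and leave out the spread between libraries. Both MEF reads were in replicate 2. Without it MEFs were at 0. Against a floor of 3 reads per library, Gldc was then at least 6.55-fold higher in Cont on day 3. The same bound was 7.75-fold in +Sm3CA on day 3 and 65.5-fold in ESCs, while without MEF replicate 1 the ratios were 20.96, 24.6 and 193 and without MEF replicate 3 they were 18.4, 21.5 and 169.

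Unlike Tdh, Gldc rose between days 3 and 6 in both series. The log2 fold change was 1.31 in Cont (SE 0.36, adjusted p = 0.0159) and 1.08 in +Sm3CA (SE 0.35, adjusted p = 0.0288). The first call was lost without Cont day 3 replicate 1 (0.115) or Cont day 6 replicate 2 (0.061), and the second without +Sm3CA day 3 replicate 1 (0.0514) or 2 (0.137) or +Sm3CA day 6 replicate 1 (0.0862) or 2 (0.0727). Later the libraries of a group spread widely. Cont had 47.6, 28.5 and 34.6 on day 8 and 46.9, 20.3 and 16.0 on day 10, whereas +Sm3CA had 63.0, 118 and 48.4 and then 21.03, 45.9 and 66.4. The rise of Gldc from day 3 to day 10 in +Sm3CA (0.92, SE 0.37, adjusted p = 0.0486) was lost in 5 of 6 fits that left out a library, without +Sm3CA day 3 replicate 1 (0.0797), 2 (0.175) or 3 (0.0568) and without +Sm3CA day 10 replicate 2 (0.108) or 3 (0.358), and with the replicates paired as a block it had an adjusted p of 0.065. ESCs exceeded day 10 by 2.85 (SE 0.37, adjusted p = 1.85e-08) over Cont and by 2.11 (SE 0.35, adjusted p = 4.01e-06) over +Sm3CA. In the order of group means, ESCs stood apart from the next group, +Sm3CA on day 8, and MEFs from Cont on day 3, and no other neighbours were free of overlap.

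Shmt1, the cytosolic serine hydroxymethyltransferase, was low in MEFs with 24.4, 9.77 and 23.3 normalised counts. On day 3 the Cont libraries reached 145, 141 and 139.8 and the +Sm3CA libraries 189, 169.7 and 162. Here the replicates of Cont lay close together, and neither group overlapped with MEFs. The rise was 2.99 on the log2 scale in Cont (SE 0.29, adjusted p = 2.85e-11) and 3.27 in +Sm3CA (SE 0.29, adjusted p = 2.27e-12). By day 6 Shmt1 had fallen to 72.7, 68.9 and 85.2 in Cont and to 59.0, 82.3 and 59.4 in +Sm3CA. The step was -0.91 in Cont (SE 0.19, adjusted p = 0.00157) and -1.35 in +Sm3CA (SE 0.19, adjusted p = 4.63e-06). Over the whole of days 3 to 10 it fell by 1.50 in Cont (SE 0.20, adjusted p = 5.2e-07) and by 1.46 in +Sm3CA (SE 0.20, adjusted p = 5.18e-07), but it remained above MEFs, with 54.3, 57.4 and 41.5 in Cont and 64.5, 65.5 and 58.6 in +Sm3CA.

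ESCs had 281, 137 and 309.9 normalised counts of Shmt1. The lowest of these was below all 6 libraries of day 3, so the group means of ESCs (243 ± 92.5) and of +Sm3CA on day 3 (173 ± 13.9) did not differ beyond their spread. ESCs were above MEFs by 3.76 (SE 0.29, adjusted p = 9.96e-15), above Cont on day 10 by 2.28 (SE 0.26, adjusted p = 1.12e-09) and above +Sm3CA on day 10 by 1.94 (SE 0.26, adjusted p = 4.9e-08). As a share of the ESC mean, Shmt1 went from 7.90% in MEFs to 58.5% in Cont on day 3 and back to 21.02% on day 10.

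Mthfd1, the cytosolic enzyme that loads formate onto folate, also rose by day 3. It had 14.4, 16.3 and 20.7 normalised counts in MEFs, 53.5, 55.8 and 52.0 in Cont on day 3 and 76.8, 62.1 and 69.9 in +Sm3CA on day 3. In ESCs it had 109.6, 202 and 153. Neither the day 3 groups nor ESCs overlapped with MEFs. The rise was 1.74 in Cont (SE 0.29, adjusted p = 3.52e-06), 2.12 in +Sm3CA (SE 0.28, adjusted p = 5.17e-08) and 3.22 in ESCs (SE 0.28, adjusted p = 2.49e-13). In Cont the mean went from 53.8 ± 1.89 on day 3 to 42.0 ± 16.1 on day 10, with no step called. In +Sm3CA the step from day 3 to day 6 was at the threshold (-0.64, SE 0.23, adjusted p = 0.0474). It was lost in 9 of the 12 fits without 1 library, that is without any but +Sm3CA day 6 replicate 1 and day 8 replicates 2 and 3 (adjusted p = 0.0509 to 0.159), and with the pairing of replicates (0.0505). ESCs stood above day 10 by 1.84 over Cont (SE 0.25, adjusted p = 6.46e-08) and by 1.36 over +Sm3CA (SE 0.25, adjusted p = 1.7e-05).

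Markers of the cell cycle differed between the same groups. The summed level of 6 cell cycle genes (Mki67, Top2a, Ccnb1, Cdk1, Mcm5 and Pcna) was 961 to 1241 in MEFs, 1527 to 1772 in Cont on day 3, 1678 to 1744 in +Sm3CA on day 3 and 2668 to 4648 in ESCs. From MEFs to day 3, 3 of the 6 rose in each series, where 22.6% of all genes rose in Cont and 22.4% in +Sm3CA. On day 10 the summed level was 1415 to 1723 in Cont and 1699 to 2031 in +Sm3CA, with none of the 6 genes changed from day 3. The part of cell division in the levels of the members was not tested.

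Mthfd1l, the mitochondrial enzyme that releases formate, rose by day 3 as well. It had 25.6, 14.1 and 23.3 normalised counts in MEFs and 60.6, 44.1 and 54.5 in Cont on day 3. In +Sm3CA on day 3 it had 69.9, 31.5 and 42.8. These ranges did not overlap with MEFs, and the rise was 1.46 in Cont (SE 0.31, adjusted p = 2.09e-04) and 1.32 in +Sm3CA (SE 0.31, adjusted p = 7.2e-04). No day step and no change from day 3 to day 10 was called, and the Cont means were 75.9%, 85.5%, 85.6% and 55.1% of the ESC mean along the course. The ESC libraries, at 69.4, 93.9 and 46.3, lay within reach of the reprogramming libraries. ESCs were above MEFs by 1.80 (SE 0.31, adjusted p = 4.79e-06) and above Cont on day 10 by 0.86 (SE 0.30, adjusted p = 0.0147), the latter not without Cont day 10 replicate 3 (0.086) or ESC replicate 2 (0.0624). Against +Sm3CA on day 10 the difference was 0.55 (adjusted p = 0.125).

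Mthfd2, the mitochondrial dehydrogenase between Shmt2 and Mthfd1l, took another course. Its normalised count was 230.0, 214 and 148 in MEFs, 333, 322 and 267 in Cont on day 3, and 327, 297 and 308 in +Sm3CA on day 3. All day 3 libraries were above all MEF libraries. The rise was 0.76 in Cont (SE 0.22, adjusted p = 0.00463) and 0.78 in +Sm3CA (SE 0.22, adjusted p = 0.00399), and neither was called when a single well stood for each library (0.138 and 0.075). By day 10 it had dropped to 142, 89.6 and 118 in Cont and to 118, 109.2 and 97.7 in +Sm3CA. Between these days it fell by 1.41 in Cont (SE 0.20, adjusted p = 1.4e-06) and by 1.51 in +Sm3CA (SE 0.21, adjusted p = 4.01e-07). ESCs had less again, with 69.4, 45.2 and 51.4, and the difference from MEFs was -1.69 on the log2 scale (SE 0.25, adjusted p = 1.48e-07). The difference of ESCs from day 10 was -1.03 for Cont (SE 0.25, adjusted p = 6.85e-04) and -0.95 for +Sm3CA (SE 0.25, adjusted p = 0.00204).

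Within the series, the steps of Mthfd2 were called from day 3 to day 6 in Cont (-0.77, SE 0.19, adjusted p = 0.00803) and, near the threshold, in both of the first steps of +Sm3CA (-0.53, SE 0.19, adjusted p = 0.0474, and -0.65, SE 0.20, adjusted p = 0.0387). The step in Cont was not called without Cont day 3 replicate 1 (0.0526) or Cont day 6 replicate 1 (0.0896). The first step in +Sm3CA was lost in 10 of 12 fits without 1 library, that is without any but +Sm3CA day 8 replicates 2 and 3 (adjusted p = 0.0538 to 0.142), and with the pairing (0.0521). The second was lost without +Sm3CA day 6 replicate 1 (0.0653), 2 (0.0846) or 3 (0.123) and without +Sm3CA day 8 replicate 1 (0.102) or 2 (0.253).

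Shmt2, the mitochondrial counterpart of Shmt1, made smaller moves. It had 69.99, 97.7 and 73.5 normalised counts in MEFs, 94.5, 129.7 and 122 in Cont on day 3, and 124, 125 and 125 in +Sm3CA on day 3. The highest MEF library lay above the lowest Cont library, whereas the +Sm3CA libraries were all higher than MEFs. The rise was 0.64 in Cont (SE 0.23, adjusted p = 0.0224) and 0.75 in +Sm3CA (SE 0.23, adjusted p = 0.00696). The first was not called without MEF replicate 1 (0.13) or 3 (0.0712) or Cont day 3 replicate 2 (0.0998) or 3 (0.103), and the second not without MEF replicate 1 (0.0605). In +Sm3CA, Shmt2 fell from day 3 to day 6 by 0.61 (SE 0.18, adjusted p = 0.0166), a call that needed +Sm3CA day 6 replicates 1 (0.0823 without it) and 3 (0.0588). Over days 3 to 10 it fell by 0.61 (SE 0.19, adjusted p = 0.0107; 0.0674 without +Sm3CA day 10 replicate 2). The ESC libraries, 80.4, 68.6 and 154, covered nearly the whole range of the other groups, and ESCs against MEFs (0.43, adjusted p = 0.109) did not pass.

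**Figure D2:**
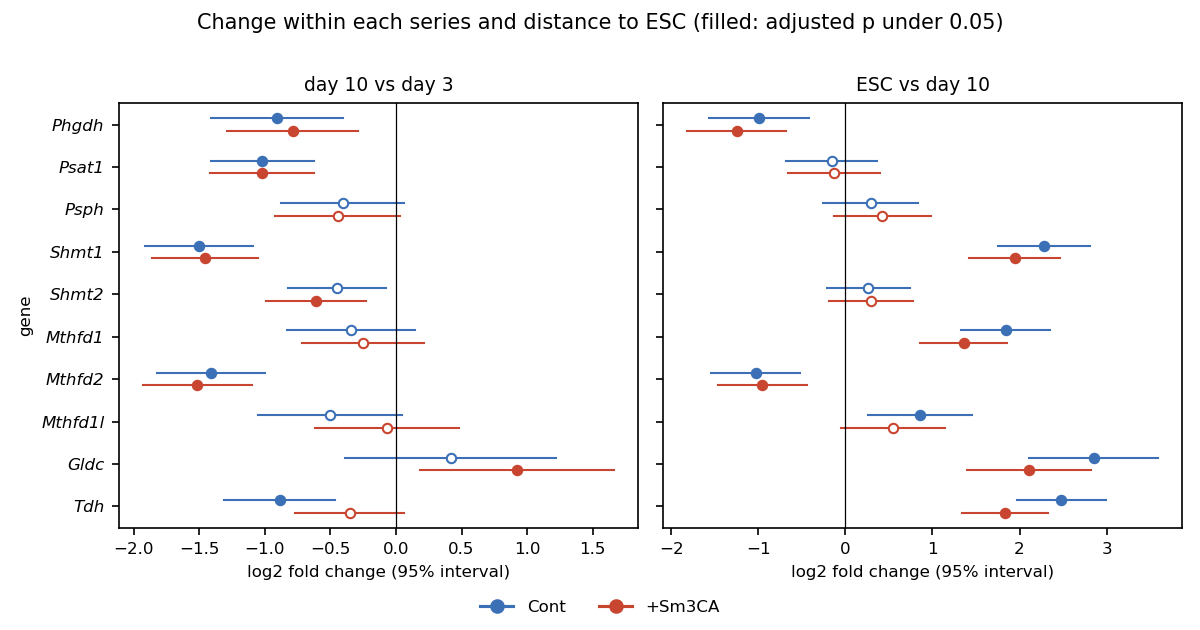
Log2 fold changes of the 10 enzymes (points, filled where called, with 95% intervals as bars) in Cont and +Sm3CA from day 3 to day 10 in the left panel and of ESCs over day 10 in the right panel. From day 3 to day 10 Shmt1, Mthfd2, Psat1 and Phgdh fell in both series, and Gldc is the only member with an interval above 0 in +Sm3CA.

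Of the serine synthesis enzymes, Phgdh was abundant from the start. It had 434, 442 and 275 normalised counts in MEFs, 455, 536 and 355 in Cont on day 3 and 471, 521 and 475 in +Sm3CA on day 3. Neither rise over MEFs was called (0.34, adjusted p = 0.304, and 0.47, adjusted p = 0.151). By day 10 all Cont libraries (303, 221 and 199.8) were below those of day 3, and so were the +Sm3CA libraries (388, 248 and 212). Phgdh fell by 0.91 in Cont (SE 0.25, adjusted p = 0.00579) and by 0.79 in +Sm3CA (SE 0.25, adjusted p = 0.0126), the latter not without +Sm3CA day 10 replicate 2 (0.0607) or 3 (0.0897), and no single day step passed in either series. ESCs had the lowest counts, 113, 92.1 and 154. They were below MEFs (-1.57, SE 0.28, adjusted p = 7.33e-06), below Cont on day 10 (-0.99, SE 0.28, adjusted p = 0.00324) and below +Sm3CA on day 10 (-1.25, SE 0.28, adjusted p = 3.63e-04).

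Psat1, the next enzyme of the chain, had 539.9, 475 and 222 normalised counts in MEFs, with the third library far below the others. On day 3 it had 591, 554 and 637 in Cont and 472, 658 and 608 in +Sm3CA. The rise of 0.65 in Cont (SE 0.25, adjusted p = 0.0339) was not called without MEF replicate 3 (0.279) or Cont day 3 replicate 1 (0.0885), 2 (0.0532) or 3 (0.128). That of 0.61 in +Sm3CA (SE 0.25, adjusted p = 0.0485) was not called without MEF replicate 2 (0.063) or 3 (0.347) or +Sm3CA day 3 replicate 2 (0.201) or 3 (0.127). The fall after day 3 was firmer. Psat1 fell by 0.77 from day 3 to day 6 in Cont (SE 0.19, adjusted p = 0.00711; 0.0673 without Cont day 6 replicate 1) and by 0.88 in +Sm3CA (SE 0.19, adjusted p = 0.00114). From day 3 to day 10 it fell by 1.02 in both series (SE 0.19, adjusted p = 1.34e-04 in Cont, and SE 0.20, adjusted p = 9.77e-05 in +Sm3CA). ESCs (327, 161 and 295) did not differ from MEFs past the threshold (-0.54, adjusted p = 0.0713).

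Psph, which releases serine, was not called by edgeR in any of the 18 comparisons, and its smallest adjusted p was 0.104, for day 6 against day 3 of Cont (-0.59, SE 0.23). It had 171, 125 and 104.6 normalised counts in MEFs and 122, 57.8 and 112 in ESCs. Its group means ran from 71.7 ± 7.07 in Cont on day 6 to 133 ± 34.1 in MEFs, and no neighbouring groups in the order of means were free of overlap. The day 10 libraries were all below the day 3 libraries in both series, but the smallest p an exact permutation test can give for 3 against 3 is 0.1.

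The ESC side of the comparison shows how far each enzyme was from ESCs at day 10. ESCs were higher than Cont on day 10 in 5 members, where 21.5% of all genes were called higher, and lower in 2, where 30.3% were called lower. Against +Sm3CA on day 10 they were higher in 4 (18.6%) and lower in 2 (27.2%). The median over all genes tested was -0.15 in both, so that differences of ESCs from day 10 are relative to that shift, and the medians of the members were 0.57 and 0.49.

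**Figure D3:**
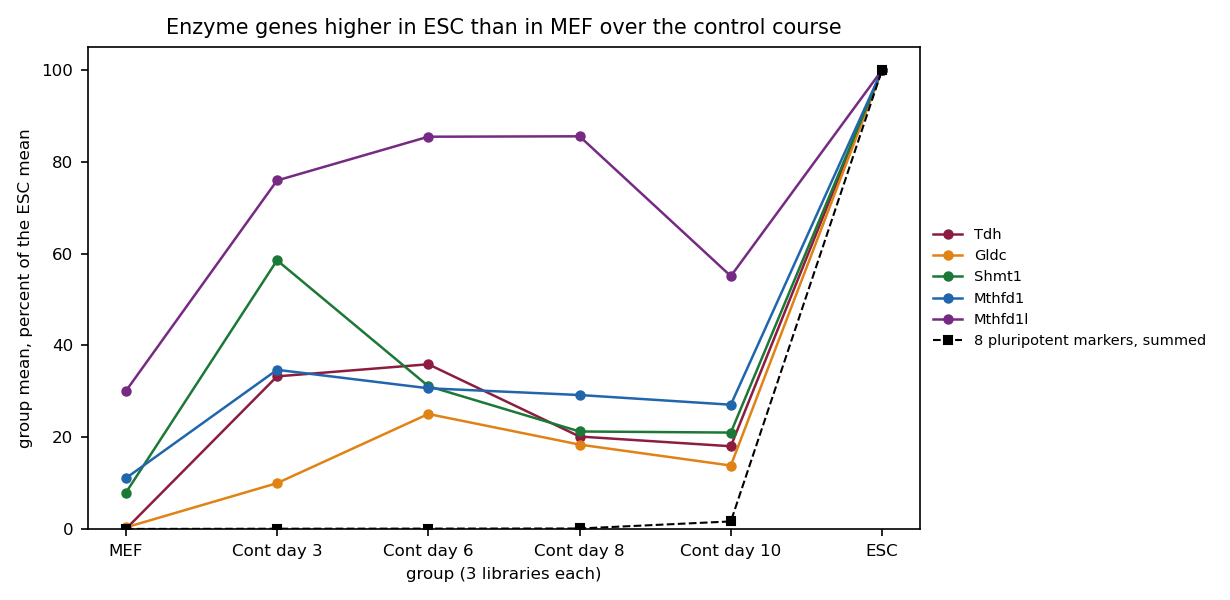
Mean normalised count of Tdh, Gldc, Shmt1, Mthfd1 and Mthfd1l, the 5 enzymes higher in ESCs than in MEFs, as a percentage of the ESC mean (vertical axis) in MEFs, in Cont on days 3, 6, 8 and 10 and in ESCs, with the sum of 8 pluripotency markers as a dashed line. Tdh stands at 33.3% in Cont on day 3 and at 18.0% on day 10, whereas the sum of the pluripotency markers stands at 0.0783% and 1.67%. In that sum the markers with the most reads weigh most.

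Smad3CA and control were compared on each day to ask whether the vector shifted these enzymes. No member was called on any day or in the interaction, which is the difference on day 10 minus that on day 3. On day 3, where 0.0195% of all genes were called, the log2 fold changes of +Sm3CA over Cont ran from -0.14 to 0.37, and on day 6 (0.00977%) from -0.23 to 0.24. At an unadjusted p below 0.05 there were 0 members on both days, and DESeq2 called 0. For day 3 the 95% intervals of all members lay within -0.67 to 1.02, and for day 6 within -0.68 to 0.66. On day 8, where 1.04% of all genes were called, the changes ran from -0.27 to 1.08 with intervals between -0.76 and 1.73. On day 10 (3.58% of genes) they ran from -0.15 to 0.73 with intervals between -0.64 and 1.48. At an unadjusted p below 0.05 there were 2 members on day 8 and 1 on day 10, and DESeq2 called 0. The interaction (1.01% of genes called) ran from -0.16 to 0.53 with intervals from -0.70 to 1.60, with 0 members at an unadjusted p below 0.05 and 0 called by DESeq2.

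The members nearest to a call were Gldc on day 8 and Tdh on day 10. Gldc on day 8 had 47.6, 28.5 and 34.6 normalised counts in Cont and 63.0, 118 and 48.4 in +Sm3CA, without overlap. The log2 fold change was 1.08 (95% interval 0.43 to 1.73, adjusted p = 0.084), and it was called without +Sm3CA day 8 replicate 3 (1.31, adjusted p = 0.0157). Tdh on day 10 had 159, 127 and 217 in Cont and 287, 260.0 and 228 in +Sm3CA, again without overlap. The change was 0.63 (95% interval 0.21 to 1.06, adjusted p = 0.0916), and it was called without Cont day 10 replicate 3 (0.89, adjusted p = 0.038). Without +Sm3CA day 8 replicate 2 the change of Gldc was 0.63 (adjusted p = 0.502). Shmt1 on day 8 was the other member with an unadjusted p below 0.05 (0.54, 95% interval 0.13 to 0.94, adjusted p = 0.173).

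Libraries of the vectors were apart in both directions in other members. Tdh on day 6 was lower in +Sm3CA, with 219, 313 and 314 against 346, 327 and 328 in Cont, and so was Mthfd1l, with 51.3, 56.7 and 49.9 against 58.2, 61.3 and 59.7. Shmt1 on days 3 and 10 and Mthfd1 on day 3 were higher in all +Sm3CA libraries than in all Cont libraries. None of these passed the test. For such a separation of 3 from 3 libraries an exact permutation test gives p = 0.1, the smallest it can give. The share of all genes with libraries apart was not determined, so these separations, with those of Gldc and Tdh above, have no background to be read against.

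Markers of other cells differed between the vectors on the same days. On day 10, where 3.58% of all genes were called, 3 of 7 pluripotency and 1 of 4 neural and glial markers were higher in +Sm3CA. Lower in +Sm3CA were 3 of 8 fibroblast, 3 of 5 keratinocyte and 1 of 4 macrophage and mast cell markers. The keratinocyte sum was 244 to 557 in +Sm3CA against 780 to 1115 in Cont. On day 8 the keratinocyte sum was 311 to 467 in +Sm3CA against 581 to 836 in Cont. On that day 1.04% of all genes were called. Lower in +Sm3CA were 2 of 5 keratinocyte and 2 of 4 neural and glial markers. Higher were 1 of 8 fibroblast, 1 of 6 epithelial and 1 of 6 cell cycle markers. The cell cycle sum on day 8 was 1796 to 1922 in +Sm3CA against 1236 to 1414 in Cont. The part of these markers in the values of Gldc and Tdh was not tested.

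**Figure D4:**
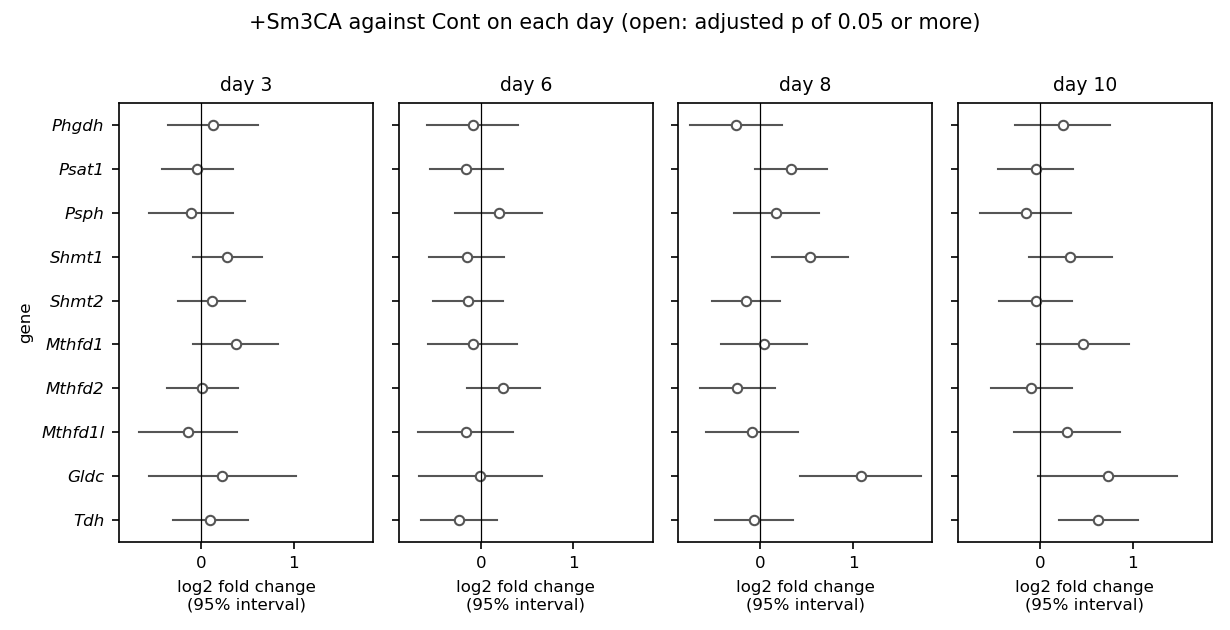
Log2 fold change of +Sm3CA over Cont (horizontal axis) for each of the 10 enzymes on days 3, 6, 8 and 10, with 95% intervals as bars. No member was called on any day, and the intervals farthest above 0 are those of Gldc on day 8 (0.43 to 1.73) and Tdh on day 10 (0.21 to 1.06).

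Single steps within a series gave few further calls. In Cont, 4 members changed from day 3 to day 6 (9.12% of all genes), 1 from day 6 to day 8 (1.69%) and 0 from day 8 to day 10 (2.4%), where 2 had an unadjusted p below 0.05 and DESeq2 called 0. In +Sm3CA the counts were 6 (18.6% of genes), 2 (6.68%) and 0 (4.85%), the last with 3 at an unadjusted p below 0.05 and 0 by DESeq2. Between days 6 and 8 Tdh was the member that fell in both series.

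Around the 10 enzymes, 55 genes of neighbouring steps were followed in 6 lists, of which 48 could be tested with MEFs and ESCs and 44 within the reprogramming series. From MEFs to Cont on day 3, 17 of the 48 rose, where 22.6% of all genes rose, and 8 fell, where 20.9% fell, and the median was 0.26 on the log2 scale against 0.00 for all genes. In the list of glycine cleavage and glycine use, 4 of 7 genes could be tested and all 4 rose. Amt, Gamt and Gnmt did not pass the filter on low counts. Amt and Gnmt had 0 reads in MEFs and in Cont on day 3. Gamt had 44 reads in MEFs and 8 in Cont on day 3. Gcat, which takes the product of Tdh on to glycine, went from 23.2 ± 2.04 to 196 ± 34.4 normalised counts (3.19, SE 0.32, adjusted p = 4.27e-11), and Gcsh, the carrier protein of the glycine cleavage system, rose by 0.98 (SE 0.25, adjusted p = 0.00137). Of the 14 genes of the folate cycle and folate uptake 5 rose and 3 fell. The folate carrier Slc19a1 (3.31, SE 0.31, adjusted p = 9.71e-12) and Ggh, which trims folate's glutamate tail (3.74, SE 0.35, adjusted p = 9.43e-12), rose most, while the mitochondrial formyl-folate dehydrogenase Aldh1l2 fell (-3.03, SE 0.70, adjusted p = 4.86e-04).

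Among the 6 genes of purine synthesis, which use the formyl groups, 4 rose from MEFs to Cont on day 3 and none fell, led by Ppat (2.33, SE 0.22, adjusted p = 1.44e-11), Gart (1.88, SE 0.26, adjusted p = 1.09e-07) and Adsl (1.65, SE 0.22, adjusted p = 8.29e-08). Amino acid transport and serine use had 2 of 6 higher and 1 lower, and the neutral amino acid transporter Slc1a5 rose by 3.04 (SE 0.37, adjusted p = 9.01e-09). Of the 12 genes of the amino acid response, many of them targets of Atf4, 2 were higher and 3 lower. For each of these lists in Cont, the shares over all genes were 22.6% called higher and 20.9% called lower. Slc7a5 (1.63, SE 0.31, adjusted p = 3.52e-05) and the glycyl-tRNA synthetase Gars (1.10, SE 0.19, adjusted p = 7.41e-06) rose, and Ddit3, a stress response factor, fell (-1.55, SE 0.27, adjusted p = 7.44e-06). Of 6 genes of the methionine cycle and transsulfuration none rose and 1 fell. In +Sm3CA on day 3, 20 of the 48 rose (22.4% of all genes) and 9 fell (20.7%) against the same MEFs. All 4 tested genes of the glycine list and 5 of 6 purine genes were among those that rose.

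From day 3 to day 10 of Cont, 8 of 44 listed genes rose, where 13.6% of all genes rose, and 10 fell, where 11.6% fell. In +Sm3CA 7 rose, where 17.6% of all genes rose, and 12 fell, where 16.2% fell. Several genes that had risen by day 3 came down, in comparisons that share the day 3 libraries with that rise. Slc19a1 fell by 1.76 in Cont (SE 0.25, adjusted p = 7.99e-07) and by 1.64 in +Sm3CA (SE 0.24, adjusted p = 1.73e-06), and Gcsh changed by -1.52 (SE 0.18, adjusted p = 2.15e-08) and -0.92 (SE 0.18, adjusted p = 9.69e-05). Of the purine genes Atic changed by -1.44 (SE 0.20, adjusted p = 5.82e-07) and -2.16 (SE 0.20, adjusted p = 1.58e-10). Gcat fell in Cont at the edge of the threshold (-0.55, SE 0.20, adjusted p = 0.0373), which was lost without Cont day 3 replicate 1 (0.0619) or 2 (0.167) and without Cont day 10 replicate 2 (0.175) or 3 (0.143).

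Other listed genes went up over the same days. Cth, which makes cysteine by transsulfuration from a serine-derived intermediate, went from 23.6 ± 8.87 to 260.0 ± 42.5 normalised counts in Cont (3.49, SE 0.31, adjusted p = 2.87e-11) and rose by 3.82 in +Sm3CA (SE 0.31, adjusted p = 5.92e-12). Ddit3 rose by 1.55 (SE 0.26, adjusted p = 2.31e-05) and 1.63 (SE 0.28, adjusted p = 1.69e-05). These steps run from plate rows A to C to rows G and H, and markers of several cell types changed over them too. Over all genes 13.6% rose and 11.6% fell in Cont, and 17.6% rose and 16.2% fell in +Sm3CA. All 7 tested pluripotency and all 6 epithelial markers were higher in both series. Of 8 fibroblast markers, 5 were higher in Cont, and 3 were higher and 1 lower in +Sm3CA. Of 5 keratinocyte markers, 2 were higher in Cont, and 2 were higher and 3 lower in +Sm3CA. Of 4 macrophage and mast cell markers, 2 were higher in Cont, and 2 were higher and 1 lower in +Sm3CA. Of 4 neural and glial markers, 1 was higher and 1 lower in Cont, and 3 were higher and 1 lower in +Sm3CA. The part of the plate position and of the cell types present was not tested.

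ESCs were higher than MEFs in 17 of the 48 listed genes (29.1% of all genes) and lower in 11 (30.5%). Of the 6 purine genes 5 were higher in ESCs, led by Ppat (2.87, SE 0.22, adjusted p = 9.39e-15), Pfas (2.64, SE 0.33, adjusted p = 6.66e-09) and Gart (2.54, SE 0.26, adjusted p = 2.94e-11), and all 6 tested genes of the methionine cycle were called, 5 of them higher, with Ahcy at 1.70 (SE 0.22, adjusted p = 8.04e-09). None of the 12 amino acid response genes was higher and 4 were lower, with Ddit3 at -2.61 (SE 0.30, adjusted p = 8.36e-10). Gcat had 161 ± 89.3 normalised counts in ESCs and was above MEFs by 2.93 (SE 0.32, adjusted p = 1.72e-10).

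Compared with Cont on day 10, ESCs were higher in 14 of the 48 listed genes (21.5% of all genes) and lower in 19 (30.3%). Ggh was among those lower (-3.60, SE 0.39, adjusted p = 2.66e-10), as were Gatm, the first enzyme of creatine synthesis from glycine (-3.16, SE 0.40, adjusted p = 9.21e-09), and Slc1a5 (-1.89, SE 0.38, adjusted p = 5.59e-05). Aldh1l2 had 0 reads in the 3 ESC libraries and 37 in Cont on day 10. Pfas (2.02, SE 0.32, adjusted p = 1.49e-06) and Ahcy (1.95, SE 0.22, adjusted p = 9.95e-10) were among those higher.

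Between +Sm3CA and Cont, 1 of the 44 listed genes was called on day 8, where 1.04% of all genes were called, and 1 on day 10, where 3.58% were called. The gene called on day 10 was Gcat, which was higher in +Sm3CA, with 223 ± 57.3 against 135 ± 42.5 (0.74, SE 0.20, adjusted p = 0.0254), a call lost without Cont day 10 replicate 2 (0.178) or 3 (0.147) or +Sm3CA day 10 replicate 1 (0.194).

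**Figure D5:**
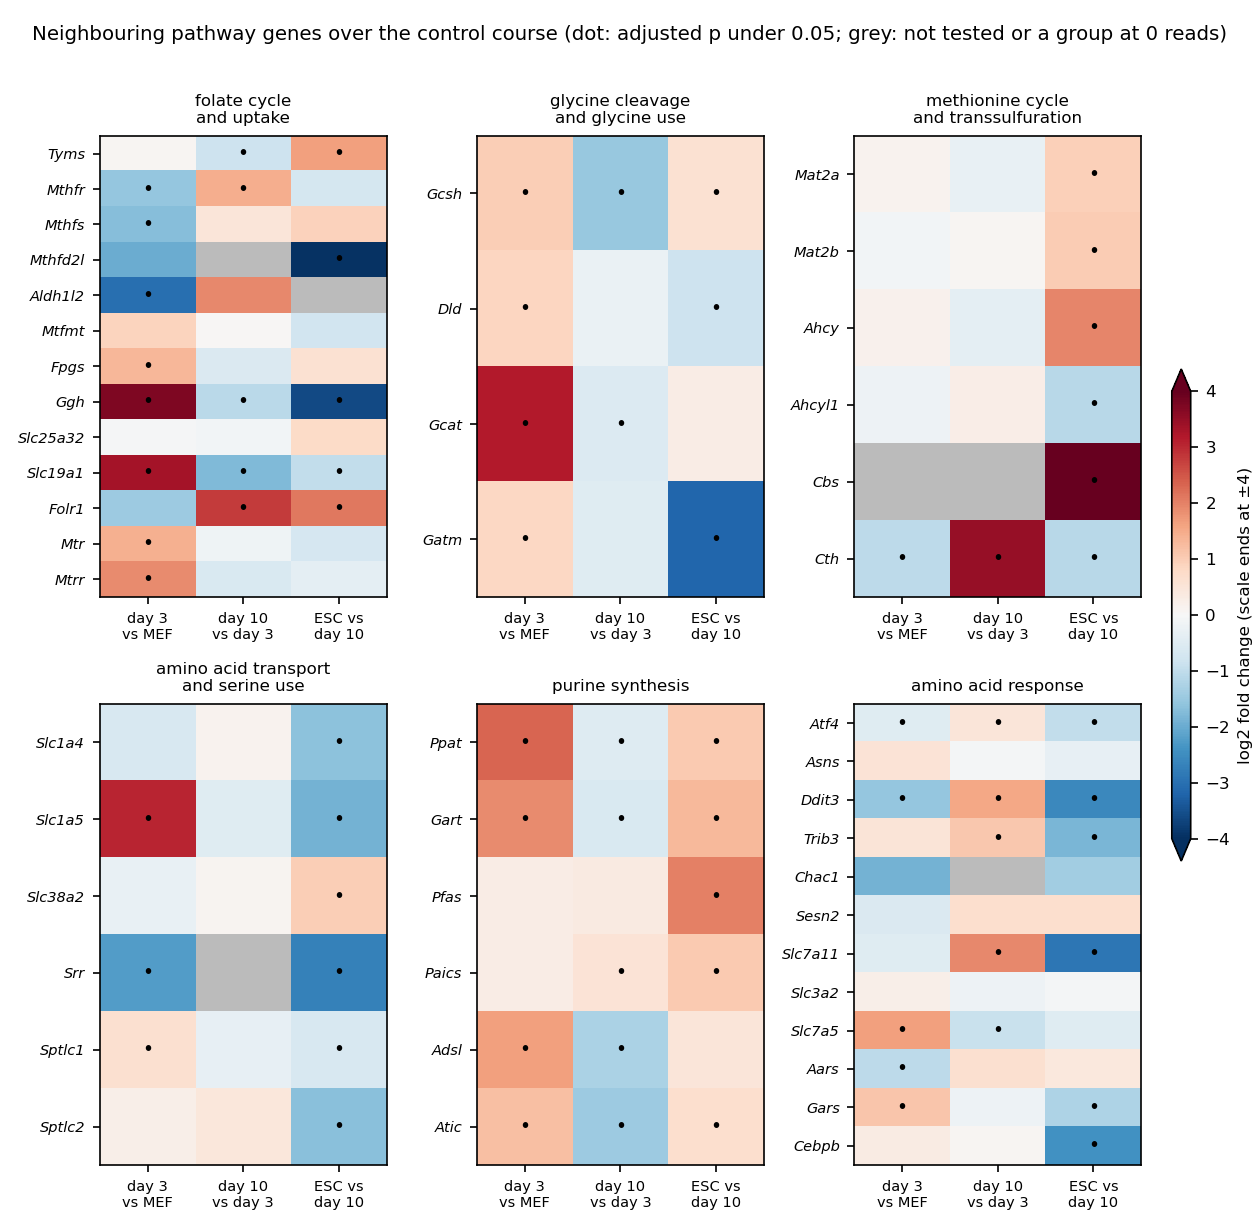
Log2 fold changes of tested genes of the 6 neighbouring lists, without 1 that is not reported here (1 panel a list, 1 gene a line) as colour, for Cont on day 3 against MEFs, Cont on day 10 against day 3 and ESCs against Cont on day 10, with a dot where a gene was called and grey where it was not tested or a group had no read. All 4 tested glycine genes and 4 of 6 purine genes are called higher on day 3 than in MEFs. Cth is called higher on day 10 than on day 3.

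The likeness of the enzymes' courses over the 10 group means is given here as correlations of log2(mean + 1) without a test, since the means share libraries, scaling and day. Phgdh and Mthfd2 ran closest together (Pearson's r = 0.962), with Psat1 beside them (0.731 and 0.822). Shmt1 and Mthfd1 (0.913), Gldc and Tdh (0.903), and Mthfd1l with Tdh (0.921) and Gldc (0.916) also had high values. Each of these genes was lowest in MEFs and highest in ESCs. Their values include that span and do not show a shared course between days 3 and 10. From day 3 to day 8 of +Sm3CA the mean of Gldc went from 23.7 to 76.6, while that of Tdh went from 332 to 176. The lowest values were those of Psph with Gldc (-0.646) and Tdh (-0.621) and of Phgdh with Gldc (-0.604).

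Among 6583 genes with a mean of at least 20 normalised counts, those most like Tdh over the 10 group means were E130012A19Rik (r = 0.994), Phlda2 (0.983) and Ubxn2a (0.981). For Gldc they were the mitochondrial tRNA mt-Ti (0.979), Fam169a (0.978) and Plekhf2 (0.9752). Shmt1 was closest to Prmt5 (0.969), Seh1l (0.956) and Dctpp1 (0.955), and Mthfd1 to Mcm5 (0.9748), Luc7l (0.971) and Mcm10 (0.9704). The names depend on the measure. With a pseudocount of 5 in place of 1, 1 of the 3 nearest genes was shared for Tdh, 1 for Gldc, 2 for Shmt1 and 3 for Mthfd1, and with Spearman's rho 0 were shared for each of the 4.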

How the data were processed

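The files deposited by the authors hold raw counts of reads for each gene in each of 84 wells of STRT RNA-seq, not normalized. The submitters' processing notes name Bowtie 0.12.9, DESeq2 1.6.3 and mm10, and strand and annotation version are not given in the sources used here. STRT reads carry molecular tags, but the deposited counts are of reads, as used in the study, so copies made in amplification are counted and p-values, intervals and floors cover no amplification bias. Wells held 195330 to 902989 reads, no 2 replicates were identical, and no column was left unassigned. Groups and replicates came from the labels.

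Wells of a replicate were summed. Normalised counts used size factors of DESeq2 1.42.0 over all 30 libraries. Tests used edgeR 4.0.16 in R 4.3.3 (TMM, filterByExpr, quasi-likelihood F test) with Benjamini-Hochberg adjustment over all genes tested and a threshold of 0.05, in a fit of all 30 libraries (10979 genes) for comparisons with MEFs or ESCs and of the 24 reprogramming libraries (10237 genes) otherwise. No block was used, since the study's methods name none. The series' design text pairs replicates over days within a series, so a fit with the culture as a block was run for day comparisons, and with the replicate number for the others. Correlations of deviations between same-numbered libraries ran from -0.135 to 0.136 over 10401 genes. The ratios of Gldc to MEFs have exact 95% intervals from pooled counts. Figures and tables used Python 3.11.15, pandas 2.3.3, scipy 1.17.1 and matplotlib 3.10.9, and positions are from GENCODE release M21.

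The members and gene lists were chosen with earlier results of these data known. All members are described, with statistics for those past the threshold. Of each list at most the 3 called genes with the largest change in a comparison are named, leaving out fits against groups with 2 reads or fewer. Alternatives were a threshold of 0.01, DESeq2 size factors, no filter, 1 well per library, the DESeq2 Wald test, other libraries in the fit, the block, and leaving out each library. The step was tested on simulated data in which 200 genes differed 4-fold and recovered 195 with 18 false calls of 9893 genes for +Sm3CA against Cont on day 10, and 190 with 4 false calls of 10378 genes for ESCs against MEFs. The changed genes were not drawn from those with the lowest counts. Changes below 4-fold, such as those of the members between the vectors, were not simulated. Protein sequences and the Tdh promoter are not shown, and the values of 1 gene of the folate list are not reported here.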

Additional observations from a re-analysis of the deposited data

How the results depend on the processing

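No result changed direction under any alternative. Of 1501 refits of 110 single-gene results, 1349 stayed on their side of the threshold, 147 lost the call and 5 gained it, and of 153 recomputed group levels 45 moved by more than 1 SD. The ratio of Tdh to MEFs could not be computed, since MEFs were at 0. Members called from MEFs to Cont on day 3 went from 8 to 5 with 1 well per library. From day 3 to day 10 of +Sm3CA they went from 6 to 3 at a threshold of 0.01. Over the 3 day steps of Cont, calls went from 5 to 3 at 0.01 and to 3 in the fit of all 30 libraries. Over those of +Sm3CA they went from 8 to 2 at 0.01, to 5 without a filter, to 3 with 1 well, to 5 with the DESeq2 Wald test and to 2 in the fit of all 30 libraries. For +Sm3CA against Cont, 0 calls became 1 on day 8 without a filter and 1 with 1 well, and 1 on day 10 without a filter. Among pathway genes, 18 calls from day 3 to day 10 of Cont became 9 at 0.01, 19 in +Sm3CA became 12 in the fit of all 30 libraries, and the 1 call of +Sm3CA against Cont on day 10 became 0 at 0.01, 3 without a filter and 2 with 1 well. The cause was not tested, except that a stricter threshold lowers the counts by construction.

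Leaving out 1 library gave 7 to 8 called members for ESCs against MEFs, 6 to 8 and 7 to 8 for day 3 of Cont and +Sm3CA against MEFs, 6 to 7 for ESCs against each day 10 group and 5 to 6 from day 3 to day 10 of Cont. From day 3 to day 10 of +Sm3CA it gave 3 to 6, with 3 without +Sm3CA day 10 replicate 2. The steps of Cont gave 2 to 5, with 2 without Cont day 6 replicate 1 and 3 without Cont day 3 replicate 1. The steps of +Sm3CA gave 3 to 11, with 3 without day 6 replicate 2 or 3, 4 without day 6 replicate 1 or day 8 replicate 1, 5 without day 3 replicate 1 or 2 and 11 without day 8 replicate 3. For +Sm3CA against Cont it gave 0 to 1 on day 8 and on day 10. Pathway calls ran from 26 to 32 for ESCs against MEFs, 20 to 25 and 24 to 28 for day 3 of Cont and +Sm3CA against MEFs, 11 to 18 from day 3 to day 10 of Cont (11 without Cont day 10 replicate 2), 14 to 20 in +Sm3CA, 29 to 34 for ESCs against Cont on day 10, and 0 to 2 for +Sm3CA against Cont on day 10.

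With the replicates paired as a block, called members went from 6 to 5 for day 10 against day 3 of +Sm3CA and from 8 to 6 for its day steps, and stayed at 5 for the steps of Cont. The block changed no other count of called members. With 3 libraries a group, a median of 1602511 reads a library and 2 reads of Gldc in MEFs, the intervals given in the text show which differences the data leave possible.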
